A study of Mus musculus with 8 samples.

Results

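The 9 genes described here are transcription factors of macrophages, monocytes and dendritic cells, followed in the immune cells of mouse mammary tumors: MAF (Maf), PU.1 (Spi1), C/EBPβ (Cebpb), IRF4 (Irf4), IRF8 (Irf8), MITF (Mitf), BHLHE40 (Bhlhe40), ZEB2 (Zeb2) and KLF4 (Klf4). They were taken by symbol, and all 9 members were found among the 32285 genes of the count tables. The data were single-cell RNA-seq counts of unique molecular identifiers (UMIs) from live (DAPI-) CD45+ cells, which are leukocytes, sorted from tumors 18 days after implantation. The tumors grew from E0771, a mouse mammary carcinoma line ("parental", labelled naive), or from E0771-Res1 or E0771-Res2, lines re-derived from E0771 tumors growing back after combined paclitaxel and PD-1 blockade. There were 2 parental mice (replicates 1 and 3), 3 E0771-Res1 mice and 3 E0771-Res2 mice; the third parental mouse was not analysed here. E0771 is a line of C57BL/6 origin; no genetic modification of the host is given in the labels, and the age of the mice is not given in the sources used here. Each resistant line is a single derived line, so line and resistance cannot be told apart.

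A macrophage or dendritic cell is set by combinations of such factors. PU.1 opens myeloid enhancers and is needed for the whole lineage, C/EBPβ acts with it in monocytes and in inflammatory gene expression, and ZEB2 is a repressor that holds myeloid identity. MAF is a factor of resident and resolving macrophages, and MITF with TFEB and TFE3 drives lysosomal genes. IRF8 is required for conventional type 1 dendritic cells and monocytes, IRF4 and KLF4 for type 2 dendritic cells, and BHLHE40 limits IL-10 and supports proliferation of resident macrophages.

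Each gene's locus is given in GRCm38 (mm10), the build named in the submitters' processing notes, and all 9 genes are protein-coding. Maf lies at chr8:115682942-115707794 on the minus strand and Irf8 at chr8:120736358-120756694 on the plus strand. Spi1 (chr2:91082390-91115756, plus), Zeb2 (chr2:44983632-45117395, minus) and Cebpb (chr2:167688915-167690418, plus) are on chromosome 2. Mitf (chr6:97807052-98021349, plus) and Bhlhe40 (chr6:108660629-108666925, plus) are on chromosome 6, Klf4 is at chr4:55527143-55532466 (minus), and Irf4 is at chr13:30749226-30766976 (plus).

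The promoters of 3 of the 6 members with a promoter entry are printed here, from RefSeq (GRCm38.p6), as the 250 bases before and 50 after an annotated start. In Irf8, the gene with the clearest difference between the dendritic cell classes, capitals mark the TTCNNNGAA matches (the interferon-gamma activated sequence bound by STAT factors), which lie 171 and 153 bases before the start. In Irf4, the member with the largest rise in Cd209a+ dendritic cells, no motif that was searched for matched. In Klf4, whose difference between macrophages and monocytes varied by tumor line, capitals mark a CACGTG match (the E-box of BHLHE40 and MITF) 182 bases before the start.
Irf8 (chr8:120736108-120736407, plus): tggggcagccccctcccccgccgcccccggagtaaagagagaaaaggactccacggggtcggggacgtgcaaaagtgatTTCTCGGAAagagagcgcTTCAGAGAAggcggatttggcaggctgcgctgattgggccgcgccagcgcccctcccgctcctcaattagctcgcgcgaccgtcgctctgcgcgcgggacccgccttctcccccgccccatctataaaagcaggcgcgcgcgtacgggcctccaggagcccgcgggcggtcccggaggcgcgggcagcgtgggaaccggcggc
Irf4 (chr13:30748983-30749282, plus): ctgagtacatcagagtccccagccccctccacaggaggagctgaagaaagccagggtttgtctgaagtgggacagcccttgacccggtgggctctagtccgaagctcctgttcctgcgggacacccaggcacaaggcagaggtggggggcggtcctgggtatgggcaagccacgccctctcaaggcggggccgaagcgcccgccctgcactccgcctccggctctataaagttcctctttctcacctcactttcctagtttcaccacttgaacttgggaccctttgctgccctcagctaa
Klf4 (chr4:55532426-55532725, minus): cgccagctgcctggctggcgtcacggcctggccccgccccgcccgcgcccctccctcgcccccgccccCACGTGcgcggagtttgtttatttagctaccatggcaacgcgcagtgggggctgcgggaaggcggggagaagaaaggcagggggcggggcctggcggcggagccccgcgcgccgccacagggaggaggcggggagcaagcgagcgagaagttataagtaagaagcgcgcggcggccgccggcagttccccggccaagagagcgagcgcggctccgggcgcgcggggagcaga
The motifs were searched on both strands of all 32851 such windows, and CACGTG is a palindrome. TTCNNNGAA was in 8.30% of windows and CACGTG in 7.15%. The others searched were GAAANNGAA (IRF, 8.56%), GAGGAAGT (PU.1, 3.20%), TTGCNNAA (C/EBP, 10.8%), CAGGTG (ZEB, 20.2%), TGCTGA (MAF, 19.5%) and GGGTGTGG (KLF4, 3.56%). A match describes letters in this window only. Maf, Spi1 and Bhlhe40 are named without a promoter.

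After removal of poor cells, 10605 of 11430 cells were kept, 604 to 2020 per mouse, with 5036667 to 18894504 UMIs per mouse in total. Cells were put into classes by marker counts: monocytes (2045 cells, 152 to 391 per mouse), C1qa macrophages (1515 cells, 73 to 482), Gpnmb macrophages (1382 cells, 40 to 443), Cd209a+ dendritic cells (158 cells, 10 to 37) and Ccr7+ dendritic cells (268 cells, 10 to 66). A further 4056 cells met no gate. Gpnmb macrophages were unevenly spread, with 1050 cells in E0771-Res2, 236 in E0771-Res1 and 96 in parental tumors. Median UMIs per cell were lower in E0771-Res2 C1qa macrophages (6878 to 8873) than in parental (10460 to 10466) and E0771-Res1 ones (10048 to 11633).

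The classes were checked against markers that no gate used, as summed CPM (UMIs per 1000000 summed UMIs of a class in a mouse). Monocyte markers such as Ccr2, Plac8 and Vcan had a median of 9477 CPM in monocytes and 1287 CPM in C1qa macrophages, and macrophage markers such as Adgre1, Apoe and C1qb had 22994 CPM in C1qa macrophages against 2719 CPM in monocytes. The Cd209a+ cells had the highest sum of markers listed for type 2 dendritic cells (34250 CPM), but also 5242 CPM of the monocyte markers. The type 2 list holds H2-Ab1 and Cd74, genes of MHC class II presentation. Its sum was 18803 CPM in Ccr7+ cells, 12790 CPM in C1qa macrophages and 7202 CPM in monocytes. The Ccr7+ cells held 11919 CPM of their own markers, and their macrophage markers ranged from 896 to 12025 CPM between mice, with a median of 3549 CPM, against 902 CPM in Cd209a+ cells. Markers of cross-presenting XCR1+ dendritic cells had a median sum of 342 CPM in Cd209a+ and 67.6 CPM in Ccr7+ cells. Their sum was 238 CPM in C1qa macrophages and 195 CPM in monocytes. Xcr1 itself gave 0 UMIs in Cd209a+ and 2 in Ccr7+ cells. Zbtb46, a factor of conventional dendritic cells, was at 24.3 and 55.8 CPM in these 2 classes and at 0.9 CPM or less in the others.

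Levels are CPM as above, with the lowest, median and highest of the 8 mice. Reads of 3′ UMI libraries are not scaled to transcript length, and levels are not compared between genes. Differences are log2, with the standard error (SE), from edgeR's quasi-likelihood test with mouse as a block, and p-values were adjusted by Benjamini-Hochberg across the whole table. Counting error and floors cover UMI sampling only.

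**Figure D1:**
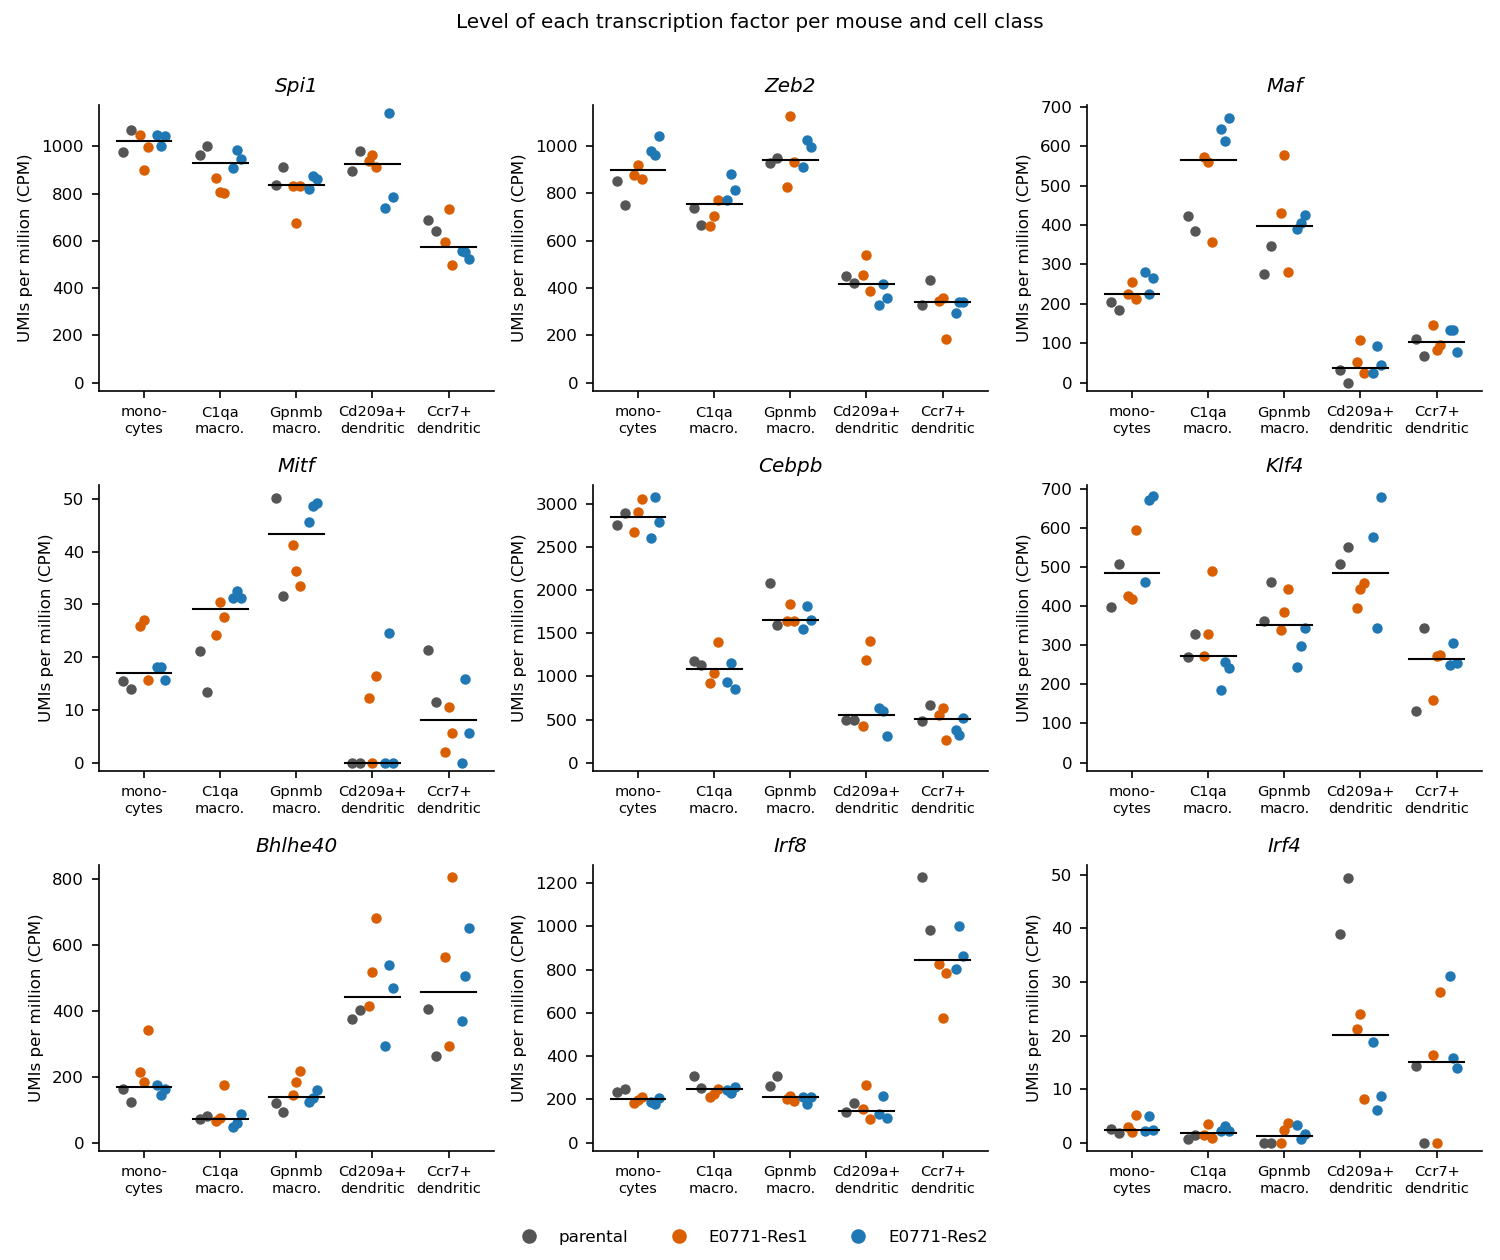
Level (CPM, linear scale) of each of the 9 members in 5 cell classes, with 1 point per mouse colored by tumor line and a bar at the median of the 8 mice. Irf8 is highest in Ccr7+ dendritic cells, Maf is highest in C1qa macrophages, and Irf4 is at most 49.4 CPM in any mouse.

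Between C1qa macrophages and monocytes, 6 of the 9 members passed the test, 1 higher and 5 lower, where 53.0% of 7604 genes passed. Maf rose and Cebpb, Bhlhe40, Klf4, Zeb2 and Spi1 fell. The median absolute log2 difference was 0.81 over the members and 0.33 over all genes.

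Maf, the large MAF factor of resident and resolving macrophages, had 184, 226 and 280 CPM (lowest, median, highest) in monocytes and 356, 566 and 672 CPM in C1qa macrophages. The groups did not overlap, and Maf was higher in macrophages by 1.07 ± 0.10 log2 (SE, adjusted p = 2.97e-12), in 8 of 8 mice. Cebpb, a factor of inflammatory gene expression, had 2608, 2848 and 3084 CPM in monocytes and 850, 1086 and 1406 CPM in C1qa macrophages, again without overlap. It fell by 1.52 ± 0.14 log2 (adjusted p = 1.93e-12).

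Bhlhe40 had 124, 170 and 342 CPM in monocytes and 47.4, 73.2 and 176 CPM in C1qa macrophages. The ranges overlapped because of E0771-Res1 replicate 3, which was the highest mouse in both classes (342 and 176 CPM), but within each mouse the macrophages were lower, 8 of 8, by 1.36 ± 0.12 log2 on average (adjusted p = 5.32e-13 for a difference of -1.36). Klf4, a zinc finger factor of monocyte differentiation, had 399, 485 and 683 CPM in monocytes and 186, 272 and 490 CPM in macrophages. It fell by 0.93 ± 0.12 log2 (adjusted p = 1.05e-08), in 8 of 8 mice, with a size that depended on the tumor line as described further on. Zeb2 fell by 0.37 ± 0.08 log2 (adjusted p = 8.04e-05) and Spi1 by 0.26 ± 0.07 log2 (adjusted p = 0.0021), both in 8 of 8 mice. Spi1, the factor of the whole lineage, was thus among the flattest members, from 901 to 1070 CPM in monocytes and from 803 to 1003 CPM in C1qa macrophages.

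Irf8 (0.16 ± 0.09 log2, adjusted p = 0.117), Mitf (0.37 ± 0.17 log2, adjusted p = 0.0601) and Irf4 (-0.81 ± 0.46 log2, adjusted p = 0.11) did not pass. DESeq2 called Irf8 (0.20 log2, adjusted p = 0.0363). Mitf was called where C1qa macrophages were gated whatever their Gpnmb count (0.54 log2, adjusted p = 0.00476) and without E0771-Res1 replicate 1 (0.52 log2, adjusted p = 0.0183).

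The gene lists moved as follows. Of 29 related transcription factors tested, 6 rose and 12 fell, led by Nfil3 (-1.69 ± 0.10 log2), a bZIP repressor, and the orphan receptor Nr4a1 (-1.67 ± 0.12 log2). Of 14 lysosomal genes linked to MITF and TFE factors, 6 rose and 2 fell, led by Atp6v0d2 (2.56 ± 0.47 log2), a proton pump subunit, and the phosphatase Acp5 (2.24 ± 0.13 log2). All 6 tested MAF-associated macrophage genes rose, led by C1qc (5.02 ± 0.23 log2) and C1qb (4.71 ± 0.23 log2), which share a complex with the gate gene C1qa, so this list is not independent of the gate. Of 8 PU.1 myeloid genes, 3 fell (Csf2rb by 0.95 ± 0.11 log2 and Csf2ra by 0.47 ± 0.08 log2, receptor chains for GM-CSF, and Csf1r).

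**Figure D2:**
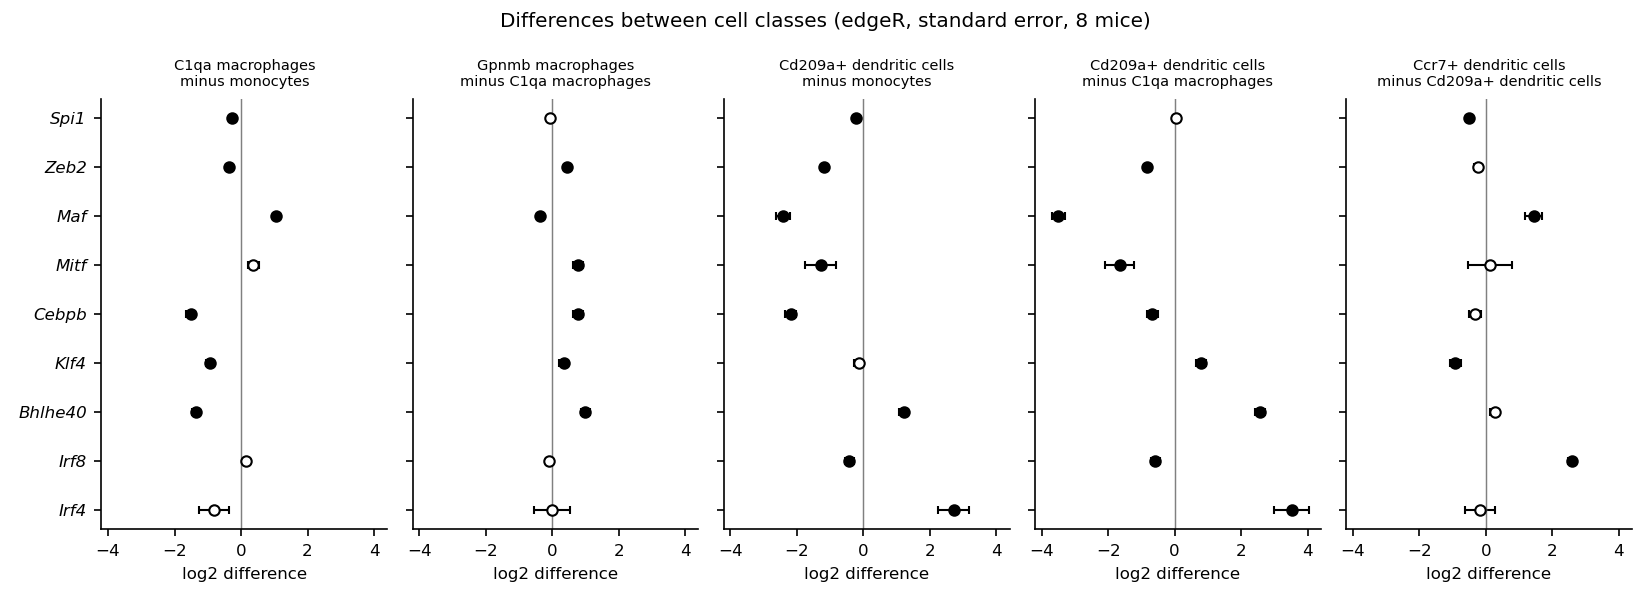
Log2 difference between cell classes for each of the 9 members in 5 comparisons, with error bars of 1 SE and filled points where the adjusted p is under 0.05. Maf is higher in C1qa macrophages than in monocytes (1.07), and Irf8 is 2.60 log2 higher in Ccr7+ than in Cd209a+ dendritic cells.

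Gpnmb macrophages, which carry the glycoprotein gene of lipid-associated macrophages, differed from C1qa macrophages in 6 of 9 members, 5 higher and 1 lower, where 19.3% of genes passed. Cebpb, Bhlhe40, Mitf, Zeb2 and Klf4 rose and Maf fell. The median absolute log2 difference was 0.37 over the members and 0.18 over all genes. Markers moved with these members: the 7 monocyte markers had a median sum of 1287 CPM (894 to 2237) in C1qa and 2276 CPM (1377 to 3570) in Gpnmb macrophages, and the 7 macrophage markers had 22994 CPM (16375 to 25331) and 13684 CPM (9211 to 14774). The Gpnmb gate asks for fewer C1qa counts than the C1qa gate. Cebpb, Bhlhe40, Zeb2 and Klf4 were also higher, and Maf lower, in monocytes than in C1qa macrophages, and the part of the markers in these differences was not tested.

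Mitf, the lysosomal and osteoclast factor, had 13.3, 29.1 and 32.5 CPM in C1qa macrophages and 31.5, 43.4 and 50.1 CPM in Gpnmb macrophages, overlapping only at the edge. It rose by 0.77 ± 0.16 log2 (adjusted p = 0.000221), in 8 of 8 mice. Over all mice this rested on 346 and 444 UMIs. Gpnmb is a known MITF target, and the gate used it.

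Bhlhe40 rose by 1.00 ± 0.13 log2 (adjusted p = 8.53e-08), from a median of 73.2 to 140 CPM, and Cebpb by 0.77 ± 0.14 log2 (adjusted p = 4.86e-05), from 1086 to 1653 CPM. The Cebpb values in Gpnmb macrophages, 1547 to 2089 CPM, lay above all C1qa macrophage values and below all monocyte values. Zeb2 rose by 0.43 ± 0.08 log2 (adjusted p = 5.29e-05), so that it stood at 943 CPM against 900 CPM in monocytes. All 3 rose in 8 of 8 mice.

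Maf fell by 0.37 ± 0.10 log2 (adjusted p = 0.00675), from a median of 566 to 398 CPM, in 7 of 8 mice. It was not called without the mouse block (-0.37 log2, adjusted p = 0.0857). Klf4 rose by 0.34 ± 0.12 log2 (adjusted p = 0.0452), in 7 of 8 mice, and this was the weakest call: it did not pass with DESeq2 (adjusted p = 0.0778), with gates scaled to depth (adjusted p = 0.066), without the mouse block (adjusted p = 0.174), or without any 1 of 6 mice, namely either parental mouse, E0771-Res1 replicate 1 or 2, or E0771-Res2 replicate 1 or 3 (adjusted p up to 0.109). Spi1 (-0.05 ± 0.07 log2, adjusted p = 0.664) and Irf8 (-0.10 ± 0.09 log2, adjusted p = 0.495) did not pass. Irf4 was at 18 UMIs in all Gpnmb macrophages and at 0 in 3 mice.

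Of the 14 lysosomal genes, 9 rose and 1 fell, led by the collagenase cathepsin Ctsk (3.08 ± 0.16 log2) and Atp6v0d2 (2.16 ± 0.25 log2). Of 6 MAF-associated genes, 4 fell (Stab1, a scavenger receptor, by 1.13 ± 0.22 log2 and C1qb by 0.99 ± 0.19 log2). Of 29 related transcription factors, 5 rose and 3 fell, among them Nfil3 (0.76 ± 0.11 log2) and Cebpd (-0.81 ± 0.15 log2). The gates for the classes set C1qa and Gpnmb, so lists holding their companions follow from the rule in part.

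Cd209a+ dendritic cells differed from monocytes in 8 of 9 members, 2 higher and 6 lower, where 26.2% of genes passed, and from C1qa macrophages in 8 of 9, 3 higher and 5 lower, where 35.9% passed. Irf4 and Bhlhe40 were higher in dendritic cells against both. Maf, Cebpb, Zeb2, Irf8 and Mitf were lower against both.

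Irf4, the factor of type 2 dendritic cells, had 6.15, 20.1 and 49.4 CPM in Cd209a+ cells, 1.75, 2.41 and 5.22 CPM in monocytes, and 0.70, 1.78 and 3.52 CPM in C1qa macrophages. The dendritic cell values did not overlap either group, but the lowest of them, 6.15 CPM, was 1 UMI, under the floor of 3 counts. Irf4 was higher by 2.71 ± 0.48 log2 than in monocytes (adjusted p = 1.09e-05) and by 3.52 ± 0.52 log2 than in C1qa macrophages (adjusted p = 1.75e-07), in 8 of 8 mice. These values rest on 26, 36 and 23 UMIs, and after every cell was thinned to 2500 UMIs, 3.16% of Cd209a+ cells held an Irf4 UMI against 0.66% of monocytes (12.0% and 1.57% without thinning). Taken per mouse, the median thinned share was 0% in Cd209a+ cells and 0.45% in monocytes. In T and NK cells, some of which express Irf4, the thinned share over all cells was 1.83%.

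Bhlhe40 had 295, 443 and 682 CPM in Cd209a+ cells, above monocytes by 1.21 ± 0.14 log2 (adjusted p = 6.97e-10) and above C1qa macrophages by 2.58 ± 0.15 log2 (adjusted p = 2.62e-19), in 8 of 8 mice each. Maf was low, with 0, 37.4 and 108 CPM (57 UMIs in all). It was lower than in monocytes by 2.43 ± 0.21 log2 (adjusted p = 4.52e-13 for -2.43) and than in C1qa macrophages by 3.49 ± 0.19 log2 (adjusted p = 9.8e-20 for -3.49).

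Cebpb had 305, 551 and 1413 CPM in Cd209a+ cells and was lower than in monocytes by 2.19 ± 0.16 log2 (-2.19, adjusted p = 4.24e-15). Zeb2 had 326, 419 and 542 CPM and was lower by 1.19 ± 0.10 log2 (-1.19, adjusted p = 5.7e-14), with no overlap with the monocytes' 752 to 1042 CPM. Against C1qa macrophages the differences were -0.67 ± 0.16 log2 (adjusted p = 0.000749) for Cebpb and -0.81 ± 0.10 log2 (adjusted p = 1.54e-09) for Zeb2. Cebpb in T and NK cells, which were taken as a reference for free RNA, was at 422 CPM, and 44.4% of these cells held a Cebpb UMI after thinning, against 44.9% of Cd209a+ and 32.7% of Ccr7+ dendritic cells, so these shares do not set either dendritic cell class above the reference. The T and NK gate asks for Lyz2, a myeloid transcript, under 5, and the dendritic cell gates set no Lyz2 limit. The reference may thus hold less free myeloid RNA than the dendritic cells. Whether T and NK cells hold Cebpb RNA of their own was not tested. As levels, T and NK cells ranged from 381 to 504 CPM. Cd209a+ cells had a median of 551 CPM (305 to 1413), above that range, with E0771-Res1 replicates 2 and 3 at 1191 and 1413 CPM. Ccr7+ cells had a median of 503 CPM (265 to 664). Without thinning the shares were 71.6%, 75.9% and 57.1%, at median depths of 4826 to 8002 UMIs in T and NK cells, 8489 to 11232 in Cd209a+ and 7274 to 10846.5 in Ccr7+ cells.

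Klf4, which is needed for type 2 dendritic cells, had 344, 484 and 679 CPM, above C1qa macrophages by 0.79 ± 0.15 log2 (adjusted p = 2.22e-05) while the difference from monocytes did not pass (-0.14 ± 0.14 log2, adjusted p = 0.515). Irf8 had 107, 148 and 265 CPM and was lower than in monocytes by 0.42 ± 0.13 log2 (-0.42, adjusted p = 0.0154) and than in C1qa macrophages by 0.58 ± 0.13 log2 (-0.58, adjusted p = 0.000419). The difference from monocytes was not called without parental replicate 1, E0771-Res1 replicate 3, or E0771-Res2 replicate 1 or 3 (adjusted p = 0.0502 to 0.0764).

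Spi1 (-0.22 ± 0.08 log2, adjusted p = 0.0335) and Mitf (-1.28 ± 0.47 log2, adjusted p = 0.0324) passed against monocytes only narrowly. Spi1 lost the call without parental replicate 1, E0771-Res1 replicate 1, or E0771-Res2 replicate 1 or 3 (adjusted p = 0.0529 to 0.253) and without the mouse block (adjusted p = 0.0834), and was not called against C1qa macrophages (0.04 ± 0.08 log2, adjusted p = 0.739). Mitf lost it without parental replicate 3, E0771-Res1 replicate 1 or 2, or E0771-Res2 replicate 1 or 3 (adjusted p = 0.0554 to 0.0934) and with gates scaled to depth (adjusted p = 0.0544). It was lower than in C1qa macrophages by 1.65 ± 0.44 log2 (-1.65, adjusted p = 0.00235). Mitf was at 10 UMIs in all Cd209a+ cells and at 0 in 5 mice, where 3 counts would be 18.8 to 36.1 CPM.

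Of 29 related transcription factors, 4 rose and 13 fell against monocytes, with Zbtb46 (4.62 ± 0.46 log2) among those that rose. Of 7 genes of the IRF4 and KLF4 program, 4 rose and 2 fell, led by the chemokine Ccl17 (4.98 ± 1.25 log2) and the lectin Clec10a (4.33 ± 0.20 log2). Of 4 tested genes of the IRF8 and BATF3 program, 2 rose, Wdfy4 (0.61 ± 0.19 log2) and Naaa (0.56 ± 0.17 log2), and none fell. Of 14 lysosomal genes, 11 fell and none rose by edgeR, with 11 at an unadjusted p under 0.05. Against C1qa macrophages, 12 of 14 lysosomal genes fell (Acp5 by 3.55 ± 0.26 log2) and all 6 MAF-associated genes fell. The gates set C1qa under 10 in the dendritic cells and at least 10 in the macrophages, so the MAF-associated list is not independent of them. Of the 4 tested IRF8 and BATF3 genes, 2 rose (Naaa and Wdfy4) and 2 fell (Cadm1 and Tlr3) against C1qa macrophages.

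Ccr7+ dendritic cells, which have the markers of mature migratory cells, differed from Cd209a+ cells in 4 of 9 members, 2 higher and 2 lower, where 37.1% of genes passed. Irf8 and Maf rose, and Spi1 and Klf4 fell. The median absolute log2 difference was 0.33 over the members and 0.53 over all genes.

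Irf8 had 576, 843 and 1228 CPM in Ccr7+ cells, against 107, 148 and 265 CPM in Cd209a+ cells. The groups did not overlap, and Irf8 was higher by 2.60 ± 0.13 log2 (adjusted p = 1.36e-21), in 8 of 8 mice. After thinning every cell to 2500 UMIs, 65.8% of Ccr7+ and 20.3% of Cd209a+ cells held an Irf8 UMI, against 43.6% of T and NK cells, lymphocytes that can express Irf8 themselves. Without thinning, a UMI was in 84.7% of Ccr7+ cells, in 79 of 158 Cd209a+ cells and in 62.6% of T and NK cells. Ccr7+ cells therefore held the highest Irf8 of the 5 classes, while Xcr1, a marker of the Irf8-dependent type 1 dendritic cells, gave 2 UMIs.

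Maf rose by 1.44 ± 0.26 log2 (adjusted p = 1.13e-05), from a median of 37.4 to 103 CPM, in 7 of 8 mice. Macrophage markers moved with it: their sum was 896 to 12025 CPM in Ccr7+ cells and 617 to 2392 CPM in Cd209a+ cells. The 6 markers of lipid-associated macrophages had a median sum of 7870 CPM (7039 to 12335) in Ccr7+ cells, 861 CPM (476 to 1210) in Cd209a+ cells and 7938 CPM in Gpnmb macrophages. The part of these markers in the result was not tested. Spi1 fell by 0.49 ± 0.09 log2 (adjusted p = 7.15e-06), from 924 to 575 CPM, in 8 of 8 mice. Klf4 fell by 0.91 ± 0.17 log2 (adjusted p = 2.25e-05), from 484 to 264 CPM, in 8 of 8 mice.

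Zeb2 (-0.23 ± 0.11 log2, adjusted p = 0.0956) and Bhlhe40 (0.27 ± 0.14 log2, adjusted p = 0.125) did not pass here, but both did with depth-scaled or stricter gates and without the top 5% of cells by UMIs, Zeb2 at -0.46, -0.44 and -0.35 log2 and Bhlhe40 at 0.44, 0.54 and 0.34 log2. Bhlhe40 also passed without E0771-Res1 replicate 2 (0.35 log2, adjusted p = 0.0471). Cebpb (-0.33 ± 0.18 log2, adjusted p = 0.145) passed only without E0771-Res2 replicate 3 (-0.48 log2, adjusted p = 0.0341). Irf4 (-0.18 ± 0.45 log2, adjusted p = 0.785) and Mitf (0.14 ± 0.66 log2, adjusted p = 0.893) did not pass on 33 and 16 UMIs, and Irf4 was at 0 in 2 mice, where 3 counts would be 31.4 to 34.4 CPM.

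Of 29 related transcription factors, 11 rose and 6 fell, led by the NF-κB subunit Relb (3.23 ± 0.16 log2) and Id2 (3.01 ± 0.18 log2), an inhibitor of E proteins. Of 7 genes of the IRF4 and KLF4 program, 1 rose (Pdcd1lg2, by 2.15 ± 0.34 log2) and 3 fell (Clec10a by 4.35 ± 0.29 log2, with Mgl2 and Itgam). Of 7 listed genes of the IRF8 and BATF3 program, 4 were tested. Of these, 2 fell (Naaa by 2.60 ± 0.27 log2 and Wdfy4 by 1.56 ± 0.27 log2), where 37.1% of all genes passed. Between C1qa macrophages and monocytes, 2 of the same 4 rose, led by Cadm1 (3.88 ± 0.18 log2), and 1 fell. Irf8 rose between the 2 dendritic cell classes, as did Batf3, which is among the 11 related transcription factors that rose. The part of either factor in the fall of Naaa and Wdfy4 was not tested. Of 6 MAF-associated genes, 4 rose, led by Folr2 (2.97 ± 0.92 log2) and C1qc (2.86 ± 0.32 log2). Of 14 lysosomal genes, 6 rose and 2 fell, led by Ctsk (3.24 ± 0.92 log2) and Acp5 (1.49 ± 0.35 log2). The Cd209a+ gate asks for C1qa under 10 and follows the Gpnmb macrophage gate. The Ccr7+ gate comes before both and limits neither gene. The MAF-associated and lysosomal lists are therefore not independent of the gates here.

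Shares of cells with a UMI were compared at 1 depth. After thinning, Maf was detected in 57.5% of C1qa macrophages, 46.4% of Gpnmb macrophages, 29.0% of monocytes, 12.8% of Ccr7+ and 8.23% of Cd209a+ cells, and in 33.5% of T and NK cells, which express Maf too. Without thinning these shares were 83.9%, 71.5%, 48.7%, 26.5%, 19.0% and 50.4%. Bhlhe40 was detected in 11.5% of C1qa macrophages, 22.7% of Gpnmb macrophages, 25.2% of monocytes, 49.4% of Cd209a+ and 54.5% of Ccr7+ cells, and in 55.0% of T and NK cells, as high as in the dendritic cells. Without thinning the Bhlhe40 shares were 31.2%, 45.7%, 45.1%, 77.8%, 82.1% and 77.6% at median depths of 6878 to 11633 UMIs in C1qa macrophages and 5729 to 8172 in monocytes. Spi1, which T cells lack, was in 17.9% of T and NK cells (median 131 CPM) and in 64.2 to 84.0% of cells of the 5 classes, or in 34.1% and 90.3 to 98.2% without thinning. The T and NK class was gated on Lyz2 under 5, and its NK cells were not set apart.

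Some genes tracked the members over the 40 sums of mice and classes. These correlations are descriptions and share library and class. Maf was nearest to C3ar1 (Pearson r = 0.948), Cebpb to Prdx5 (0.942), Zeb2 to Camk2d (0.922), Bhlhe40 to Jak2 (0.891) and Spi1 to Ms4a4c (0.875), while Mitf (Dse, 0.816), Irf4 (Mthfd2, 0.794) and Klf4 (Itgb7, 0.789) had weaker nearest genes.

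Tumor lines were compared within each class by an F test over the 3 lines, to see whether the factors differ between parental and resistant tumors. None of the 8 members tested passed in monocytes, C1qa macrophages or Gpnmb macrophages by edgeR, where 0.875%, 1.61% and 1.79% of genes passed, and none of 7 in Cd209a+ or Ccr7+ dendritic cells, where 0.232% and 0.0478% passed. Irf4 was too low to be tested in any class and Mitf in the dendritic cells. At an unadjusted p under 0.05, 5, 4, 3, 1 and 0 members passed in the 5 classes, and DESeq2 called 1, 1, 0, 0 and 0. The shares of all genes at that threshold or by DESeq2 were not counted. The percentages above are for adjusted edgeR calls and cannot be set beside these counts.

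Bhlhe40 in monocytes and Maf in C1qa macrophages had the lowest F test p-values of the members. Bhlhe40 did not pass (adjusted p = 0.0948). It was at 164 and 124 CPM in parental mice, at 214, 185 and 342 CPM in E0771-Res1 and at 176, 143 and 163 CPM in E0771-Res2, so that every E0771-Res1 mouse was above every other mouse. The difference between E0771-Res1 and parental was 0.78 ± 0.21 log2. DESeq2 called it (adjusted p = 0.0201), and so did the fit with a replicate block (adjusted p = 0.0256) and the fit without E0771-Res1 replicate 2 (adjusted p = 0.013).

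Maf in C1qa macrophages was at 423 and 384 CPM in parental mice, at 573, 559 and 356 CPM in E0771-Res1 and at 645, 613 and 672 CPM in E0771-Res2. All E0771-Res2 values lay above all parental values, with a difference of 0.64 ± 0.16 log2 (adjusted p = 0.0767), and the F test gave an adjusted p of 0.0853. It was called by DESeq2 (adjusted p = 0.0448), with depth-scaled gates (adjusted p = 0.0419), without E0771-Res1 replicate 1 (adjusted p = 0.0415) and without E0771-Res1 replicate 3 (adjusted p = 0.0038). Irf8 was lower than parental in both resistant lines in monocytes and in both macrophage classes, without passing (F test adjusted p = 0.133 to 0.388). In Gpnmb macrophages, Maf was at 275 and 346 CPM in parental mice, at 431, 578 and 281 CPM with E0771-Res1 and at 389, 407 and 425 CPM with E0771-Res2, and the lines did not pass (F test adjusted p = 0.45).

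Other genes of the lists did differ by line. In monocytes, 3 of 27 related transcription factors passed, Klf2 (1.90 ± 0.27 log2 in E0771-Res2 against parental), Klf6 (0.67 ± 0.13 log2) and Runx3 (-0.77 ± 0.12 log2). In C1qa macrophages, 1 of 27 passed (Pparg), and in Gpnmb macrophages 3 of 28, Irf1 (-0.84 ± 0.18 log2 in E0771-Res2), Bhlhe41 and Runx3. Of the lysosomal genes, 0 of 13 passed in monocytes by edgeR (2 at an unadjusted p under 0.05), 1 of 14 in C1qa macrophages (Ctsk) and 2 of 14 in Gpnmb macrophages (Ctsk and Acp5). Ctsk was higher in E0771-Res2 than in parental by 2.71 ± 0.49 log2 in C1qa and 1.14 ± 0.19 log2 in Gpnmb macrophages, and in E0771-Res1 its differences were 1.40 ± 0.55 and -0.36 ± 0.21 log2. Of 6 MAF-associated genes, 2 passed in Gpnmb macrophages, C1qb (0.67 ± 0.16 log2 in E0771-Res1 and 0.74 ± 0.16 in E0771-Res2) and C1qc (0.71 ± 0.14 and 0.79 ± 0.14 log2). Mrc1, of the same list, passed in C1qa macrophages (1.09 ± 0.23 and 0.43 ± 0.24 log2) and in monocytes (0.30 ± 0.24 and -0.91 ± 0.27 log2). Mgl2, of the IRF4 and KLF4 list, passed in Ccr7+ dendritic cells (-3.73 ± 0.64 and -6.12 ± 0.79 log2). Naaa and Csf2rb passed in both macrophage classes, and Itgb2 in C1qa macrophages.

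The difference between C1qa macrophages and monocytes was then compared between lines, by an interaction test with mouse as a block. Klf4 was the single member of 8 to pass (adjusted p = 0.00223), where 0.034% of 8820 genes passed, the others being Klf2 and Jun. DESeq2 called it too, but edgeR did not call it without E0771-Res2 replicate 3. The difference was more negative in E0771-Res2 than in parental by 0.85 ± 0.15 log2 (-0.85, adjusted p = 0.0301), and E0771-Res1 did not differ from parental (0.14 ± 0.15 log2, adjusted p = 0.96).

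In single mice, Klf4 in C1qa macrophages minus monocytes was -0.67 and -0.68 log2 with parental tumors, -0.73, -0.48 and -0.40 log2 with E0771-Res1 tumors, and -1.41, -1.46 and -1.61 log2 with E0771-Res2 tumors, so the E0771-Res2 mice lay apart from all others. The Klf4 level in monocytes was 399 and 507 CPM in parental mice, 425, 418 and 595 CPM in those with E0771-Res1, and 462, 673 and 683 CPM in E0771-Res2. In C1qa macrophages it was 269 and 330 CPM, then 274, 330 and 490 CPM, then 186, 258 and 242 CPM. Neither level passed alone (F test adjusted p = 0.374 in monocytes and 0.176 in C1qa macrophages). In C1qa macrophages, Klf4 was called without E0771-Res1 replicate 1 (adjusted p = 0.0383), with a replicate block (adjusted p = 0.0473) and with no low-count filter (adjusted p = 5.51e-06), and in monocytes with no low-count filter (adjusted p = 0.0148). In Gpnmb macrophages Klf4 was at 363 and 463 CPM for parental mice, 340, 386 and 445 CPM for E0771-Res1 mice, and 244, 297 and 343 CPM in E0771-Res2. The interaction of E0771-Res2 kept its sign without each mouse, from -0.88 to -0.79 log2. The interaction F test over the lines did not call Klf4 without E0771-Res2 replicate 3 (adjusted p = 0.078).

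Klf4 is among the genes that cells induce early after stimulation, and 10 immediate-early and heat shock genes, chosen after the Klf4 values were seen, were summed beside it. In monocytes the sum was 7415 to 8083 CPM for parental mice, 7759 to 10143 CPM for E0771-Res1 mice and 9930 to 13521 CPM in E0771-Res2, and in C1qa macrophages it was 6968 to 7329, 7164 to 7958 and 6941 to 8218 CPM. The ratio of macrophages to monocytes was 0.588 to 0.699 in E0771-Res2, 0.706, 0.995 and 0.958 in E0771-Res1 replicates 1 to 3, and 0.862 and 0.988 in parental mice. E0771-Res1 replicate 1 was close to E0771-Res2 in this ratio, while its Klf4 difference (-0.73 log2) was close to the parental ones. Of the 10 genes, 1 (Jun) passed the interaction test, and 9 had an unadjusted p under 0.05, a threshold at which the share of all genes was not counted. E0771-Res2 macrophages were also the shallowest, and the part of either in the Klf4 result was not tested.

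**Figure D3:**
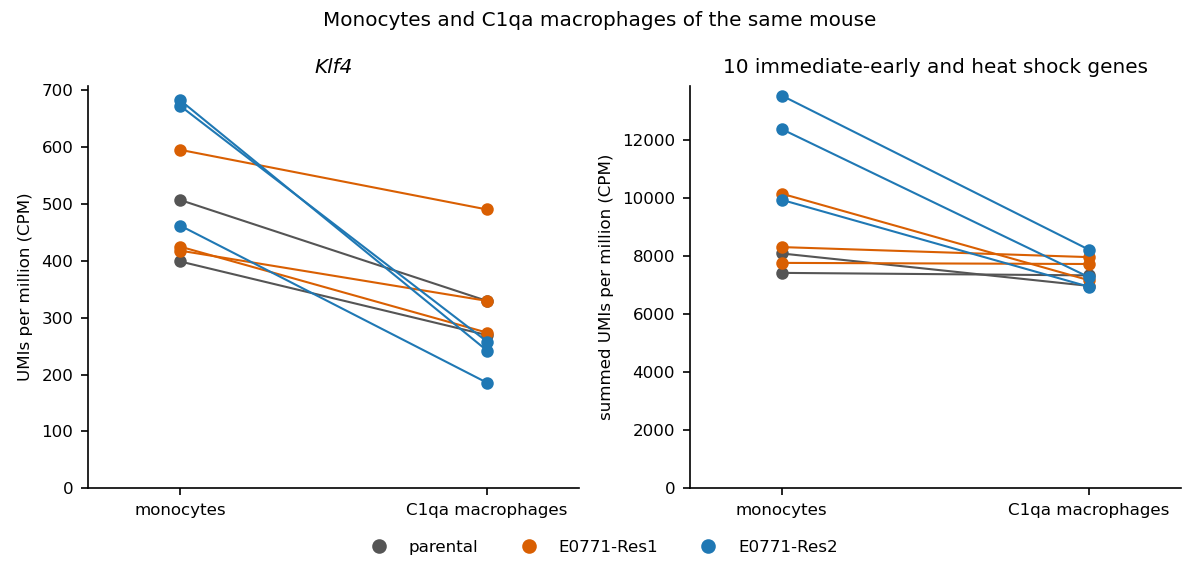
Klf4 level (CPM, left) and the summed CPM of 10 immediate-early and heat shock genes (right) in monocytes and C1qa macrophages, with 1 line per mouse, colored by tumor line. Klf4 lies lower in macrophages in all 8 mice, and its drop is steepest in the 3 E0771-Res2 mice (-1.61 to -1.41 log2).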

How the data were processed

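The authors deposited 1 UMI count matrix per mouse, made with Cell Ranger 6.1.2 on mm10 (per the file headers and the submitters' processing notes, which also name Seurat), so values are raw counts. Per the labels, cells of pooled, tag-labelled mice were sequenced by 10x 3′ chemistry; the 9 tag features were left out, 38 duplicated symbols were kept as separate genes, and 0 barcodes were shared between mice. The mice are separate animals.

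Cells with 500 to 6000 genes and under 10% mitochondrial counts were kept. Each cell took the first class it met: T and NK cells (at least 3 counts of Cd3d, Cd3e, Cd3g, Trbc2, Ncr1 and Klrb1c, Lyz2 under 5); lymphoid or mixed and epithelial or stromal cells, left out; Ccr7+ dendritic cells (Ccr7 and Fscn1 at least 1); Gpnmb macrophages (Gpnmb at least 2, Lyz2 at least 5, C1qa at least 1); C1qa macrophages (C1qa at least 10, Gpnmb under 2); Cd209a+ dendritic cells (Cd209a at least 2, C1qa under 10); monocytes (Ly6c2 at least 2, C1qa under 2, no Gpnmb or Cd209a, Lyz2 at least 5). No doublet caller was run. A class entered with its summed counts in a mouse where it had 10 cells or more. Genes with the prefixes mt-, Rpl, Rps and Gm were dropped before sums and CPM. A floor is 3 counts.

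Sums were tested with edgeR 4.0.16 (quasi-likelihood) in R 4.3.3; DESeq2 1.42.0, other gates, filters and left-out mice were alternatives. Class comparisons and the interaction used a mouse block. Replicate numbers were not used to pair mice across lines in the main fits. Correlations of deviations ran from -0.082 to 0.18 for same-numbered and from -0.192 to 0.127 for other pairs of mice. Between the resistant lines in monocytes they were 0.033, 0.18 and 0.155 for same numbers, and -0.192 to 0.043 for others. The deviations of the 2 parental mice mirror each other. These values do not decide whether the numbers mark a shared batch. On simulated counts with 200 genes changed by 1.5 log2, 100% were recovered (4.76% false) for C1qa macrophages against monocytes on 7378 genes, 78% (3.11%) for lines in monocytes on 7943 genes, 55% (3.51%) in Cd209a+ dendritic cells on 2620 genes, 69% (6.12%) in Ccr7+ dendritic cells on 4309 genes, and 75% (6.25%) for the interaction on 8689 genes. The simulated counts had 1 dispersion for all genes. Line differences of the members were smaller, -0.62 to 0.78 log2 in monocytes and -0.68 to 0.76 log2 in C1qa macrophages. Recovery at such sizes was not simulated. Named genes are the 9 members, the called list genes with the 2 largest differences and the most correlated genes. Results that need certain withheld genes are not reported here. The members and lists were chosen with earlier results of these data known.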

Additional observations from a re-analysis of the deposited data

Results flagged for a closer look

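In 4 of 45 sets of 8 per-mouse differences, a single mouse lay far from the other 7; about 1 in 20 such sets would be expected to show this by chance. For Klf4 in Gpnmb minus C1qa macrophages, E0771-Res1 replicate 3 was at -0.08 log2, while the others ranged from 0.27 to 0.58. For Maf in Cd209a+ dendritic cells, parental replicate 3 was at -6.51 log2 against monocytes (others -3.49 to -1.30) and at -7.50 log2 against C1qa macrophages (others -4.58 to -2.41). That mouse had 0 Maf UMIs in 17 cells, where 3 counts would be 24.7 CPM, so these values depend on the prior count. For Irf8 in Ccr7+ minus Cd209a+ dendritic cells, E0771-Res1 replicate 2 was at 1.28 log2 (others 2.33 to 3.24), from 11 and 10 cells.

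The Klf4 difference between C1qa macrophages and monocytes differed between lines by the interaction test (adjusted p = 0.00223 by edgeR), with 0.14 log2 for E0771-Res1 and -0.85 log2 for E0771-Res2, each against parental. This call was lost without E0771-Res2 replicate 3.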

How the results depend on the processing

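The members' class differences and the Klf4 interaction of E0771-Res2 gave 701 values under alternatives. Of these, 650 kept direction and side of the threshold, 26 lost a call, 12 gained one and 13, all of uncalled differences, changed sign. The F tests over lines are not among these values, and several of their members gained a call under alternatives, as counted below. The sign changes were Irf4 in Gpnmb against C1qa macrophages (0.0796 log2 without the top 5% of UMI counts, and -0.45 to 0.21 leaving out each mouse), Spi1 in Cd209a+ dendritic cells against C1qa macrophages (-0.0532 with no low-count filter), and Irf4 (0.0792 with depth-scaled gates, 0.24 with stricter gates, -0.42 to 0.12 leaving out each mouse) and Mitf (-0.0406 without the top 5%, -0.48 to 0.73) in Ccr7+ against Cd209a+ dendritic cells. With no low-count filter, 374 genes passed between lines in monocytes, 642 in C1qa and 451 in Gpnmb macrophages, 68 in Cd209a+ and 43 in Ccr7+ dendritic cells and 130 in the interaction, with 2, 3, 1 and 1 members in the first 4. Stricter gates gave 43 genes in monocytes, 12 in Gpnmb macrophages, 2 in Cd209a+ dendritic cells and 13 in the interaction. Depth-scaled gates gave 54 in Gpnmb macrophages, 1 in Cd209a+ and 10 in Ccr7+ dendritic cells and 13 in the interaction, with 1 member in monocytes and 1 in C1qa macrophages. DESeq2 gave 10 in Cd209a+ dendritic cells and 5 in the interaction, with 1 member in monocytes and 1 in C1qa macrophages. Without the top 5%, 1 gene passed in Ccr7+ dendritic cells and 16 in the interaction. A replicate block gave 178 genes in monocytes (1 member, Bhlhe40), 16 in Cd209a+ and 1 in Ccr7+ dendritic cells, and 1 member (Klf4) in C1qa macrophages. The mice are separate animals, and whether equal replicate numbers mark a shared batch is not known. The cause of these changes was not tested.

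Leaving out each mouse in turn, line tests called 9 to 138 genes (0 to 1 members) in monocytes, 9 to 404 (0 to 2) in C1qa macrophages, 32 to 231 (0) in Gpnmb macrophages, 1 to 14 (0 to 1) in Cd209a+ and 0 to 9 (0) in Ccr7+ dendritic cells, and the interaction 1 to 19 (0 to 1). The class tests called 3542 to 4200 genes (6 to 7 members) for C1qa macrophages against monocytes, 1124 to 1501 (5 to 6) for Gpnmb against C1qa macrophages, 1607 to 1999 (5 to 8) for Cd209a+ dendritic cells against monocytes, 2321 to 2659 (8) against C1qa macrophages and 2409 to 2820 (4 to 5) for Ccr7+ against Cd209a+ dendritic cells. Leaving out a parental mouse leaves 1, assumed to vary like the other groups. The dendritic cell classes, with 10 to 66 cells per mouse, limit what could be detected.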

Other observations

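Cells outside the comparisons also held these transcripts. In T and NK cells (522 cells) the medians of the 8 mice were 589 CPM for Irf8, 567 CPM for Bhlhe40, 265 CPM for Maf, 134 CPM for Klf4 and 21.0 CPM for Irf4. The 4056 cells that met no gate were not compared.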
